A study of Mus musculus with 22 samples.

Results

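Homeostatic microglia genes are genes associated with resting microglia, the macrophages of brain and retina. Many of them tell microglia apart from other macrophages, while some, such as Spi1, are shared with these. A list of 38 such genes was followed by name in RNA-seq libraries of sorted retinal microglia. All 38 were among the 35596 genes measured and among the 12415 genes with enough reads to be tested.

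The libraries came from 12-week-old mice of 4 groups. Wild-type mice (strain C57BL/6) gave phagocytic cells (n = 5 libraries) and non-phagocytic cells (n = 5), and Apoe-/- mice (strain given as Apoe KO), which lack the lipid carrier apolipoprotein E, gave phagocytic cells (n = 6) and non-phagocytic cells (n = 6). Every animal had received apoptotic neurons by injection into the vitreous of the eye, so that no group shows uninjected microglia. Cells were taken 24 hours later, per the file headers. CD11b+ Fcrls+ cells without Ly6c were sorted, and the dye Alexa488 then parted cells that had taken up dead neurons from cells that had not. Between 5 and 6 retinas were pooled for a library, and 100 to 500 phagocytic cells were collected per pool. The p-values therefore measure the spread between pools. In such bulk samples, fewer cells of a type and less RNA per cell cannot be told apart. Pool numbers follow the sample titles, which do not state that equal numbers in the 2 sorts share animals.

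The homeostatic programme of microglia is known to depend on signals of the growth factor receptor CSF1R and of TGF-beta, and on transcription factors such as PU.1 and SALL1. It includes receptors for nucleotides, lipids and chemokines by which microglial processes sense their surroundings. In neurodegeneration-associated (MGnD) microglia many of these genes are known to be turned down, through a pathway in which Trem2 and Apoe take part. The comparisons ask whether dead-neuron uptake and loss of Apoe go with such a difference in the retina.

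The promoters of 4 members are shown because their values carry the patterns described here. P2ry12, P2ry13 and Siglech varied together from library to library, and Mef2a was the steadiest member. The windows are from RefSeq on build GRCm38.p6 and run from 250 bases before to 10 bases after the annotated start, on the coding strand. They lie at chr3:59262976-59263235 (minus strand), chr3:59210873-59211132 (minus strand), chr7:55767934-55768193 (plus strand) and chr7:67372849-67373108 (minus strand). Capitals mark matches, on either strand, to the PU.1 core AGGAAG, the longer PU.1 form GAGGAAGT that contains it, the MEF2 core TAAAAATA or the RUNX motif TGTGGTT.
P2ry12: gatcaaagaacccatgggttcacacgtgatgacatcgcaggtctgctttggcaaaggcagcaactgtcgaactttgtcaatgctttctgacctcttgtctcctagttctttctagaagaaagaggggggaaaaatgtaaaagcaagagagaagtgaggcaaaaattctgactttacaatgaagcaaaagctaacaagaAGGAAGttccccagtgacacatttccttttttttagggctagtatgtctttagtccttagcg
P2ry13: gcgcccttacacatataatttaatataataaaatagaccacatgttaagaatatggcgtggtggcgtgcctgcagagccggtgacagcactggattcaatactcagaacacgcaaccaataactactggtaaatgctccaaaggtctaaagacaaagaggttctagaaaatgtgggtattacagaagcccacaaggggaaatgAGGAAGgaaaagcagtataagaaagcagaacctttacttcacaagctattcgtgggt
Siglech: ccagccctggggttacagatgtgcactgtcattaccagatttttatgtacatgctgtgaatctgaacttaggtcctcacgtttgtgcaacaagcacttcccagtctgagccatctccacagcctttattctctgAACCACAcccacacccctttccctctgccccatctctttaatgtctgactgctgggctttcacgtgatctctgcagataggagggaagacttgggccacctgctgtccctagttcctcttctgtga
Mef2a: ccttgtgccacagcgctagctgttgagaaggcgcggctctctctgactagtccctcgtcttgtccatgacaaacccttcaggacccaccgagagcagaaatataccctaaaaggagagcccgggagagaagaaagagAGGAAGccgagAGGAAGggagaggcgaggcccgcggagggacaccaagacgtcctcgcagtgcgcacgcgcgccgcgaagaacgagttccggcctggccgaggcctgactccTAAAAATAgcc
The windows of P2ry12 and P2ry13 each hold 1 AGGAAG, that of Siglech 1 RUNX match on the other strand, and that of Mef2a 2 AGGAAG and 1 TAAAAATA. Over full windows of 300 bases, AGGAAG occurred in 18 of the 37 windows found for 27 members (16 genes) and in 35.4% of all 32851 windows. GAGGAAGT occurred in 2 of the 37 against 3.2% of all windows, TGTGGTT in 3 against 5.27%, and TAAAAATA in 1 against 2.72%. A match describes the letters only.

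Libraries held 1131239 to 3643674 estimated reads and 16547 to 21776 detected genes. Abundant predicted genes, 7 in number, took 8.73% to 49.5% of the reads, with over 40% in Apoe-/- non-phagocytic pools 2 and 5. Apoe itself stood at 868.8 to 5145 CPM (read counts per library size after TMM scaling, which adjusts for library composition) in wild-type and at 7.02 to 34.9 CPM in Apoe-/- libraries. The defining microglial genes P2ry12, Tmem119, Cx3cr1 and Fcrls were present in every library, as the label of the cells states. Markers of other cells were also present, and no gene of any marker list was at 0 in all libraries. Summed over 20 monocyte markers, levels were 4978 to 12913 CPM in wild-type phagocytic, 1615 to 8194 in wild-type non-phagocytic, 3460 to 5614 in Apoe-/- phagocytic and 1263 to 2771 CPM in Apoe-/- non-phagocytic libraries.

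Adjusted for length, the members spanned a wide range of levels. The mean over the 22 libraries was 7311 TPM (abundance per transcript length, scaled to the same total in each library) for Cst3, 686 for Csf1r, 575 for Selplg, 541 for Cx3cr1 and 459 for Tmem119. P2ry12 stood at 177 TPM and Fcrls, whose protein was a sort marker for all groups, at 184 TPM. The transcription factors were lower, with Spi1 at 144, Irf8 at 115, Sall1 at 24.7, Maf at 8.53 and Sall3 at 8.07 TPM. Tgfa (4.33 TPM) and Trem3 (4.12 TPM, 188 reads in all libraries together) were lowest.

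With pools taken as unpaired, no member passed the test in any of the 5 comparisons (edgeR's quasi-likelihood test, Benjamini-Hochberg adjustment over 12415 genes, threshold 0.05). Among all genes tested, 0.209% passed between phagocytic and non-phagocytic wild-type cells, 0.467% between these sorts in Apoe-/- cells, 0.0322% between genotypes in phagocytic cells, 0.0161% between genotypes in non-phagocytic cells and 0.0% for the genotype difference in the uptake effect. A second tool, DESeq2, called 1 member, Spi1, in 1 comparison (genotype in phagocytic cells), where it called 0.153% of all genes. A block on the pool number changed the member calls of the Apoe-/- sort comparison, as given in the closing section.

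Most members had estimates on the lower side in phagocytic cells, and none of these passed the test with pools taken as unpaired. In wild type, 24 of 38 members had an estimate below 0, against 50.8% of all genes, and the median log2 fold change was -0.31 (all genes, -0.01). In Apoe-/- cells 32 of 38 lay below 0, against 52.3% of all genes, with a median of -0.40 (all genes, -0.02). Estimates of 22 members were below 0 in both genotypes, 4 were above 0 in both (P2ry6, Fcrls, Ecscr and Maf), and 12 differed in sign. Members moved together between libraries, so the 38 estimates are not independent. The wild-type median rested on single libraries: it was -0.10 without non-phagocytic pool 2, -0.16 without non-phagocytic pool 3, -0.17 without phagocytic pool 4 and -0.46 without non-phagocytic pool 4. In Apoe-/- cells it stayed between -0.52 and -0.32 under the alternatives run. Leaving out the pools numbered 4 of wild type, chosen after seeing the data because they held the highest summed monocyte markers of their sorts, left 25 and 32 members below 0. Dendritic cell markers lay on the same side as the members, with estimates below 0 for 13 of 13 tested genes in each genotype (medians -1.40 and -1.33), of which 1, Btla in wild type, passed the test. Their summed levels were 779 to 4491 CPM in phagocytic against 1378 to 15255 CPM in non-phagocytic wild-type libraries, and 525 to 3074 against 1520 to 5223 CPM in Apoe-/- libraries, with overlap. Genes that respond to dissociation were also mostly below 0, at 18 and 17 of 20 (medians -0.38 and -0.59). The part of either list in the members' estimates was not tested.

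**Figure D1:**
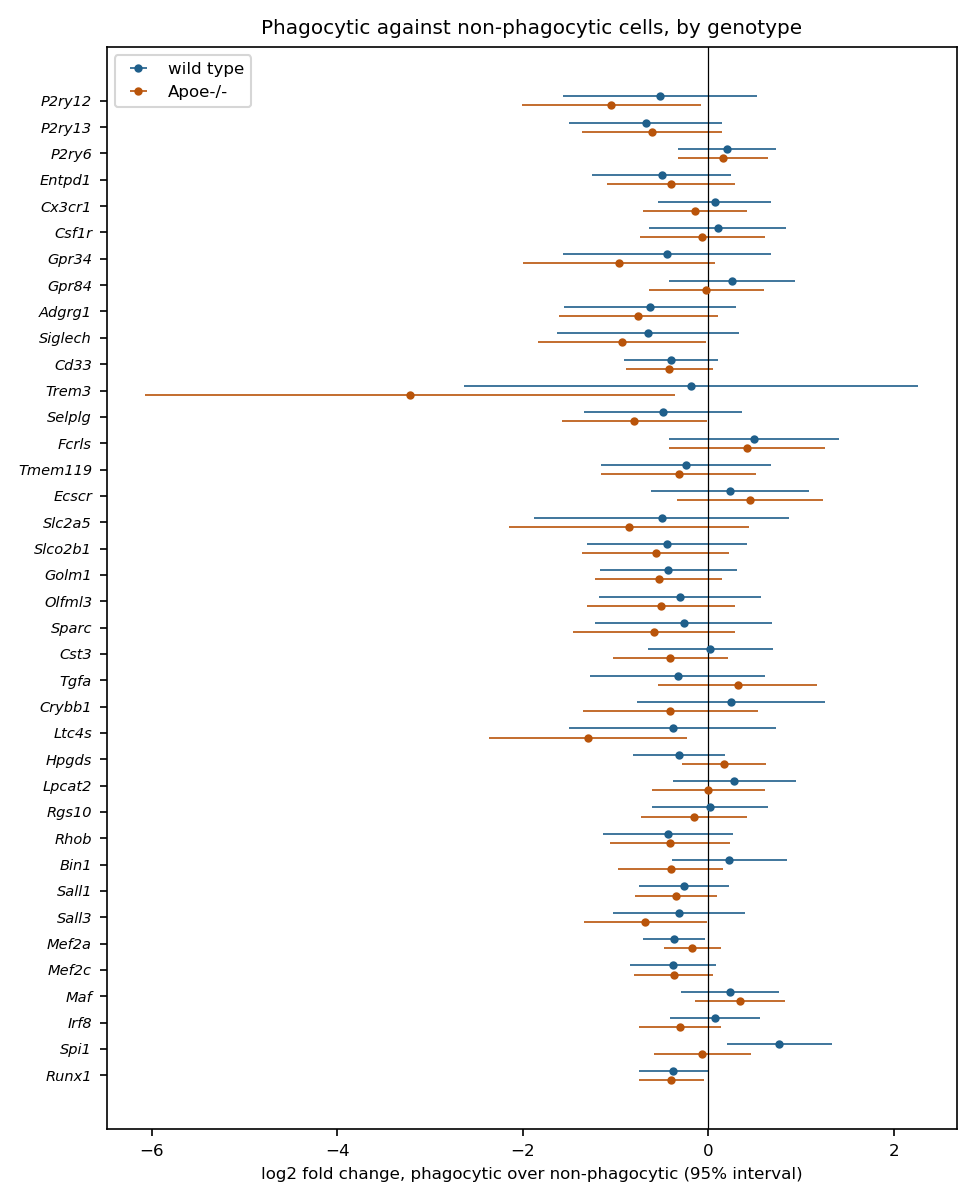
Log2 fold change (x axis) of phagocytic against non-phagocytic cells for each of the 38 genes (rows, by role), in wild type and in Apoe-/-, with 95% intervals from edgeR. Of the members, 24 in wild type and 32 in Apoe-/- have an estimate below 0, and most intervals include 0.

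Members at an unadjusted p under 0.05 were 2 of 38 in wild type (Mef2a on the lower and Spi1 on the higher side) against 7.74% of all genes (3.14% lower, 4.6% higher). Among Apoe-/- cells they were 7, all on the lower side (P2ry12, Sall3, Siglech, Selplg, Ltc4s, Trem3 and Runx1), against 9.93% of all genes and 4.45% on that side. With pools taken as unpaired, the smallest adjusted p of a member was 0.415 in wild type and 0.38 in Apoe-/- (edgeR, Benjamini-Hochberg).

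Of the 4 genes of nucleotide sensing, 3 had lower estimates in phagocytic cells of each genotype. P2ry12 encodes the receptor by which microglial processes follow ADP from injured cells. It stood at 236, 502, 421, 63.4 and 155 CPM in wild-type non-phagocytic pools 1 to 5 and at 197, 356, 250.0, 52.2 and 102 CPM in phagocytic pools 1 to 5. In Apoe-/- libraries its lowest, median and highest values were 182, 284 and 516 CPM in non-phagocytic and 42.3, 151 and 278 CPM in phagocytic cells. Groups overlapped in each comparison, with the wild-type pools numbered 4 and Apoe-/- phagocytic pools 5 and 6 at the bottom of their groups. The log2 fold change with uptake was -0.52 ± 0.51 (SE) in wild type (95% interval -1.57 to 0.52) and -1.05 ± 0.47 in Apoe-/- cells (-2.01 to -0.08), with adjusted p = 0.906 and 0.442 by edgeR. These p-values take pools as unpaired. With a block on the pool number the Apoe-/- estimate was -1.22 (adjusted p = 0.00515 by edgeR). Whether equal numbers share animals is not known. For the genes that follow, the first of a pair of Apoe-/- ranges is that of non-phagocytic libraries, and the first of a pair of estimates for uptake is that of wild type.

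P2ry13, a close relative of P2ry12 that also binds ADP, gave 211, 326, 374, 86.7 and 154 CPM in wild-type non-phagocytic and 114, 223, 218, 71.0 and 94.6 CPM in phagocytic pools 1 to 5. In the knockout libraries it ranged over 121 to 299 CPM (median 177) without uptake and 55.9 to 249 CPM (median 127) with it. The ranges overlapped, and the estimates were -0.68 ± 0.40 in wild type and -0.61 ± 0.37 in Apoe-/- cells. Entpd1, the ectonucleotidase CD39 that breaks down extracellular ATP and ADP, had estimates of -0.50 ± 0.37 and -0.40 ± 0.34. P2ry6, a UDP receptor known for its part in microglial phagocytosis, lay on the other side at 0.20 ± 0.26 and 0.16 ± 0.23.

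**Figure D2:**
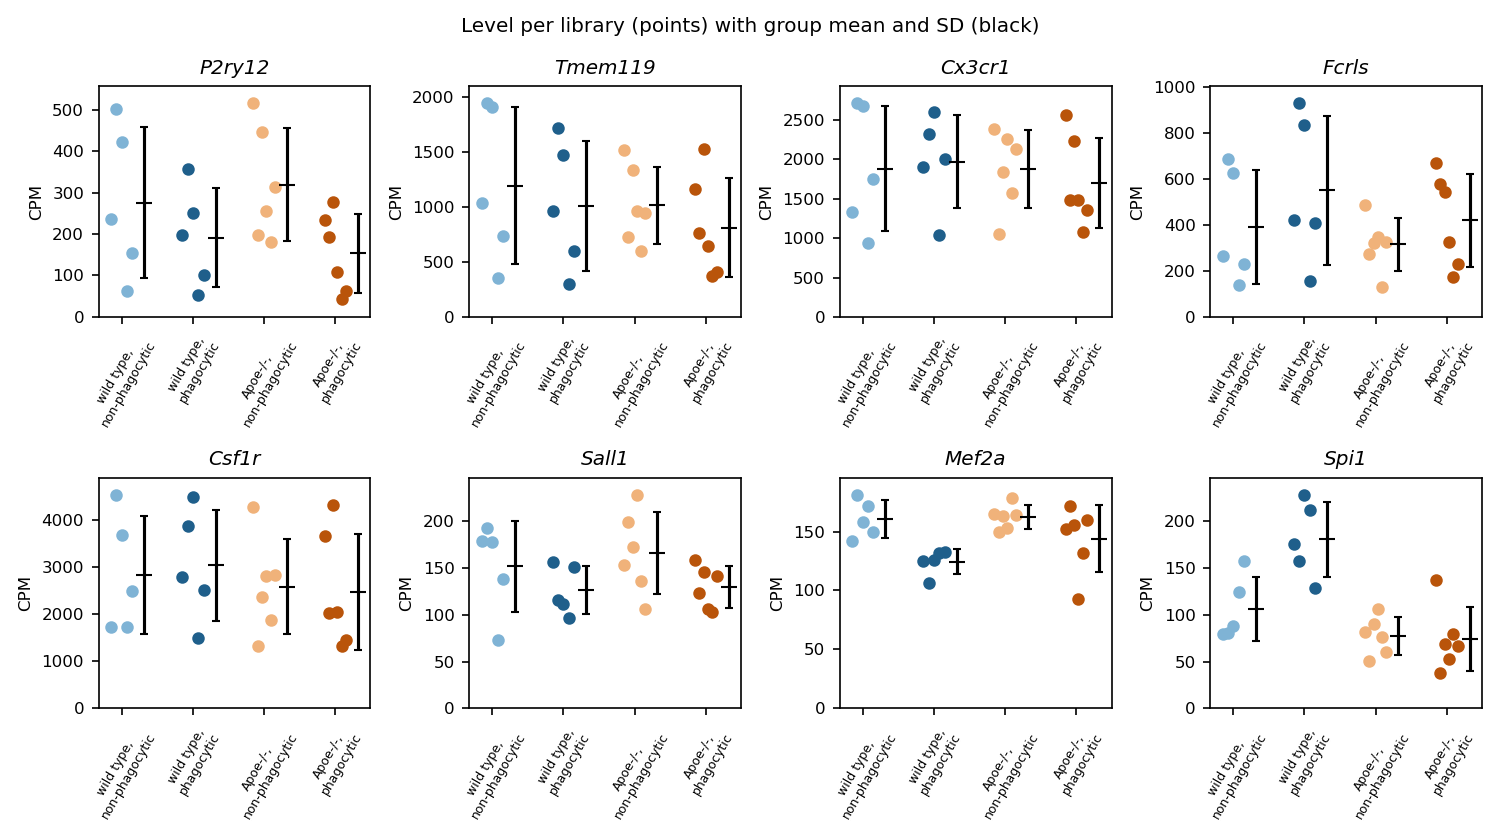
CPM (y axes, each from 0) of 8 members in every library (points) of the 4 groups (x axis), with group mean and SD in black. Groups overlap in each panel and comparison except Mef2a in wild type, where phagocytic libraries (106 to 133 CPM) lie below non-phagocytic libraries (142 to 181 CPM).

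The 12 other surface receptors had a median estimate of -0.21 in wild type (7 below 0) and of -0.37 in Apoe-/- cells (10 below 0). Tmem119, a membrane protein used as a microglial marker, stood at 1036, 1946, 1909, 354 and 735 CPM in wild-type non-phagocytic and at 965, 1720.0, 1476, 296 and 604 CPM in phagocytic pools 1 to 5. In Apoe-/- cells it ranged from 602 to 1523 CPM (median 955) without and from 374 to 1525 CPM (median 706) with uptake. Pools thus differed up to 5.81-fold within a group, while the estimates for uptake were -0.24 ± 0.45 and -0.32 ± 0.41.

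Cx3cr1, the receptor for the neuronal chemokine fractalkine, gave 1337, 2713, 2672, 937 and 1750.0 CPM in wild-type non-phagocytic and 1903, 2322, 2596, 1037 and 1998 CPM in phagocytic pools 1 to 5. Its Apoe-/- values were 1056 to 2388 CPM (median 1981) and 1075 to 2562 CPM (median 1480.0). The groups overlapped over most of their ranges, with estimates of 0.07 ± 0.30 and -0.14 ± 0.27. Csf1r, the receptor for CSF1 and IL-34 that microglia need to survive, stood at 1725, 4530.0, 3668, 1718 and 2491 CPM in wild-type non-phagocytic and at 2788, 3866, 4483, 1499 and 2509 CPM in phagocytic pools 1 to 5. In Apoe-/- libraries Csf1r ranged from 1331 to 4272 CPM (median 2584) and from 1323 to 4307 CPM (median 2034). The estimates were 0.10 ± 0.36 (95% interval -0.64 to 0.84) and -0.06 ± 0.33 (-0.74 to 0.61), so that differences within those intervals were not excluded.

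Fcrls, an Fc receptor-like protein and marker of the sort, gave 267, 686, 628, 139 and 232 CPM in wild-type non-phagocytic and 421, 931, 836, 158 and 408 CPM in phagocytic pools 1 to 5. Values in Apoe-/- libraries were 132 to 488 CPM (median 325) and 175 to 672 CPM (median 434). Phagocytic libraries reached higher in each genotype, and the groups overlapped widely. The estimates were 0.49 ± 0.45 and 0.42 ± 0.41, with adjusted p = 0.893 and 0.828 by edgeR.

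Siglech, a sialic acid-binding lectin, stood at 378, 649.9, 409, 121 and 221 CPM in wild-type non-phagocytic and at 256, 371, 300.1, 72.7 and 133 CPM in phagocytic pools 1 to 5. Its Apoe-/- range was 271 to 538 CPM (median 321) without and 48.6 to 369.8 CPM (median 202) with uptake. Phagocytic libraries reached lower, and the ranges still overlapped. The estimates were -0.65 ± 0.48 and -0.93 ± 0.44, with adjusted p = 0.839 and 0.481 by edgeR. With a block on the pool number the Apoe-/- estimate was -1.24 (adjusted p = 0.00874 by edgeR).

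Gpr34, a receptor for lysophosphatidylserine, gave 229.7, 372, 416, 66.1 and 161 CPM in wild-type non-phagocytic and 179.6, 289, 259.8, 55.2 and 132 CPM in phagocytic pools 1 to 5. Without Apoe the ranges were 142 to 460.1 CPM (median 230.4) and 21.74 to 296 CPM (median 137). Its Apoe-/- phagocytic libraries parted into pools 5 and 6, at 22.52 and 21.74 CPM, and the other 4 at 121 CPM or more. The estimates were -0.45 ± 0.55 and -0.96 ± 0.50.

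Adgrg1, the adhesion receptor GPR56, stood at 111, 261, 175, 42.3 and 63.3 CPM in wild-type non-phagocytic and at 110.5, 134, 101.2, 31.7 and 44.9 CPM in phagocytic pools 1 to 5. Knockout libraries held 74.8 to 184 CPM (median 117) and 24.2 to 126 CPM (median 59.3). The estimates, -0.63 ± 0.45 and -0.76 ± 0.42, resembled those of Selplg, the selectin ligand PSGL-1 (-0.48 ± 0.41 and -0.80 ± 0.38). Ecscr, a small membrane protein also known from endothelium, gave 47.2, 69.2, 59.3, 15.2 and 20.8 CPM in wild-type non-phagocytic and 31.6, 87.5, 73.3, 21.8 and 34.6 CPM in phagocytic pools 1 to 5. Its Apoe-/- libraries held 23.5 to 62.6 CPM (median 28.1) and 27.6 to 77.9 CPM (median 42.3). The groups overlapped, with estimates of 0.23 ± 0.41 and 0.45 ± 0.38.

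Cd33, an inhibitory lectin, had estimates of -0.41 ± 0.25 and -0.42 ± 0.23, and Gpr84, a receptor for medium-chain fatty acids, of 0.26 ± 0.33 and -0.02 ± 0.30. Trem3, a receptor of the TREM family, rested on few reads. Its counts were 6, 3, 0, 32 and 18 reads in wild-type non-phagocytic and 0, 0, 0, 55 and 7 reads in phagocytic pools 1 to 5. Among Apoe-/- cells phagocytic libraries held 0 to 3 reads and non-phagocytic libraries 0 to 14 reads. The fitted log2 fold change of -3.22 ± 1.39 in Apoe-/- cells depends on the prior count, and its adjusted p was 0.426 by edgeR.

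Transporters and Golgi genes, 3 in number, had estimates below 0 in both genotypes. Slc2a5, the fructose transporter GLUT5, gave 76.8, 153, 112, 16.8 and 19.5 CPM in wild-type non-phagocytic and 72.6, 106, 70.7, 2.14 and 15.1 CPM in phagocytic pools 1 to 5. Across Apoe-/- libraries it spanned 24.5 to 86.6 CPM (median 56.7) and 2.70 to 63.3 CPM (median 32.5). Pools of 1 group thus differed up to 49.5-fold. The estimates were -0.50 ± 0.67 and -0.85 ± 0.63. Slco2b1, an organic anion transporter, had estimates of -0.45 ± 0.42 and -0.57 ± 0.39, and Golm1, a Golgi membrane protein, of -0.43 ± 0.36 and -0.54 ± 0.33.

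Among secreted proteins, Cst3 (the protease inhibitor cystatin C) had estimates of 0.02 ± 0.33 and -0.41 ± 0.30, Sparc (a matrix-binding protein) of -0.27 ± 0.46 and -0.59 ± 0.43, and Olfml3 (an olfactomedin-like protein) of -0.30 ± 0.43 and -0.51 ± 0.39. Tgfa, a ligand of the EGF receptor, stood at 23.2, 19.8, 29.8, 9.22 and 6.07 CPM in wild-type non-phagocytic and at 9.37, 11.3, 7.72, 29.9 and 12.0 CPM in phagocytic pools 1 to 5. The Apoe-/- libraries held 16.9 to 28.9 CPM (median 18.8) and 5.41 to 45.1 CPM (median 26.0). Its pools did not follow the order seen for P2ry12, since wild-type phagocytic pool 4 was highest, and its estimates were -0.33 ± 0.46 and 0.31 ± 0.42. Crybb1, a crystallin also found in microglia, gave 6.34, 20.9, 20.5, 4.34 and 3.03 CPM in wild-type non-phagocytic and 9.76, 21.9, 18.4, 7.27 and 8.88 CPM in phagocytic pools 1 to 5. Its Apoe-/- libraries held 6.72 to 19.9 CPM (median 18.4) and 5.02 to 18.4 CPM (median 12.4). Its estimates, 0.24 ± 0.49 and -0.41 ± 0.46, also differed in sign.

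Among enzymes and signalling genes, Ltc4s, which makes leukotriene C4, had the lowest adjusted p of a member in the unpaired Apoe-/- sort comparison. It stood at 22.6, 46.0, 32.4, 7.05 and 9.97 CPM in wild-type non-phagocytic and at 14.1, 33.8, 30.0, 5.99 and 6.66 CPM in phagocytic pools 1 to 5. In the knockout libraries it ranged over 10.7 to 42.01 CPM (median 27.1) and 3.604 to 16.2 CPM (median 11.3). Apoe-/- phagocytic libraries all lay below the non-phagocytic median, and the ranges overlapped between 10.7 and 16.2 CPM. The estimate was -1.30 ± 0.52 (95% interval -2.37 to -0.23), against -0.38 ± 0.54 in wild type, with adjusted p = 0.38 and 0.949 by edgeR. The difference between these estimates was -0.91 ± 0.75, with an unadjusted p of 0.233. With a block on the pool number the Apoe-/- estimate was -1.37 (adjusted p = 0.0116 by edgeR).

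Hpgds, a prostaglandin D synthase of blood cells, gave 107, 138, 175, 49.9 and 112 CPM in wild-type non-phagocytic and 68.7, 111, 120.0, 72.3 and 94.2 CPM in phagocytic pools 1 to 5. Values in Apoe-/- libraries were 85.5 to 144 CPM (median 117) and 114 to 163 CPM (median 126). The estimates, -0.32 ± 0.24 and 0.17 ± 0.22, differed in sign, and their difference of 0.49 ± 0.33 had an unadjusted p of 0.147. Lpcat2, an enzyme of platelet-activating factor synthesis, gave 397, 734, 651, 264 and 389.5 CPM in wild-type non-phagocytic and 546, 706, 944, 340.5 and 428 CPM in phagocytic pools 1 to 5. In Apoe-/- libraries it ranged from 293 to 696 CPM (median 606) and from 326 to 936 CPM (median 432). Phagocytic libraries reached higher in each genotype, the Apoe-/- median was lower with uptake, and the ranges overlapped widely, with estimates of 0.28 ± 0.32 and 0.00 ± 0.30. Rhob, a small GTPase, gave 129.7, 126, 122, 27.6 and 47.7 CPM in wild-type non-phagocytic and 49.2, 73.7, 69.9, 64.6 and 77.3 CPM in phagocytic pools 1 to 5. Its Apoe-/- libraries held 62.3 to 204 CPM (median 96.8) and 51.5 to 117 CPM (median 78.6), with estimates of -0.44 ± 0.34 and -0.41 ± 0.31. In size these were below the SD of log2 values in non-phagocytic pools (1.00 and 0.602), but not in phagocytic pools (0.253 and 0.394). Rgs10, a regulator of G protein signalling, had estimates of 0.02 ± 0.30 and -0.15 ± 0.28.

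Of the 8 transcription factors, 5 had estimates below 0 in wild type and 7 in Apoe-/- cells. Sall1, a zinc finger factor known to maintain microglial identity, stood at 179, 193, 178, 73.2 and 138 CPM in wild-type non-phagocytic and at 157, 116, 112, 97.1 and 151 CPM in phagocytic pools 1 to 5. Without Apoe the ranges were 106 to 228 CPM (median 163) and 103 to 158 CPM (median 132). The groups overlapped, with estimates of -0.26 ± 0.24 and -0.35 ± 0.22. Its relative Sall3 had estimates of -0.31 ± 0.35 and -0.68 ± 0.32.

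Mef2a, a MADS-box factor, was the only member whose groups did not overlap, and this was in the wild-type sort comparison. Of all genes, 0.636% lay apart there on the lower and 1.51% on the higher side. In the Apoe-/- sort comparison 0.346% and 0.524% did, between genotypes in phagocytic cells 0.491% and 0.298%, and in non-phagocytic cells 0.193% and 0.105%. It gave 142, 181, 158, 171 and 149.9 CPM in wild-type non-phagocytic and 125, 106, 126, 132 and 133 CPM in phagocytic pools 1 to 5. Every phagocytic pool lay below every non-phagocytic pool, by a small margin. The estimate was -0.37 ± 0.16 (95% interval -0.70 to -0.03), with adjusted p = 0.588 by edgeR. In Apoe-/- cells it held 149.6 to 179 CPM (median 164) and 92.5 to 172 CPM (median 154), which overlapped, with an estimate of -0.17 ± 0.15. The difference between the genotypes was 0.20 ± 0.22.

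Runx1, a factor of myeloid development, stood at 89.5, 102, 86.9, 121 and 100.1 CPM in wild-type non-phagocytic and at 98.0, 74.3, 55.3, 81.3 and 75.5 CPM in phagocytic pools 1 to 5. Knockout libraries held 73.0 to 136 CPM (median 92.3) and 62.9 to 84.5 CPM (median 73.2). Phagocytic libraries reached lower in each genotype, and the ranges overlapped. The estimates were close, -0.38 ± 0.18 and -0.40 ± 0.17, with adjusted p = 0.643 and 0.411 by edgeR. Mef2c had estimates of -0.38 ± 0.23 and -0.37 ± 0.21, and Irf8, an interferon regulatory factor that microglia require, of 0.07 ± 0.24 and -0.30 ± 0.22. Maf, a leucine zipper factor, gave 45.8, 44.5, 49.96, 29.3 and 30.8 CPM in wild-type non-phagocytic and 34.4, 36.7, 46.3, 56.5 and 61.7 CPM in phagocytic pools 1 to 5. In Apoe-/- libraries Maf ranged from 35.9 to 53.5 CPM (median 45.4) and from 25.6 to 77.8 CPM (median 62.9), with estimates of 0.23 ± 0.26 and 0.34 ± 0.24.

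Spi1 encodes PU.1, the master factor of macrophages and microglia, and stood apart from the other members. It gave 79.6, 80.4, 88.4, 124 and 157 CPM in wild-type non-phagocytic and 176, 157, 228, 212 and 129 CPM in phagocytic pools 1 to 5. Across Apoe-/- libraries it spanned 50.4 to 106 CPM (median 78.9) without and 38.3 to 137 CPM (median 68.0) with uptake. Wild-type phagocytic libraries were the highest group. It overlapped with the others through wild-type non-phagocytic pool 5 and Apoe-/- phagocytic pool 1, each above the lowest wild-type phagocytic library. The wild-type estimate for uptake was 0.77 ± 0.27 (95% interval 0.20 to 1.33; adjusted p = 0.415 by edgeR), the largest on the higher side among the members. Among Apoe-/- cells it was -0.06 ± 0.25 (-0.59 to 0.46). The difference between the genotypes was -0.83 ± 0.37 with an unadjusted p of 0.0353, where 2.42% of all genes lay under 0.05 and 1.3% on that side, and an adjusted p of 1.0 by edgeR.

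Between genotypes, Spi1 in phagocytic cells came nearest to a call. Its mean was 73.8 ± 34.04 CPM (SD, n = 6) in Apoe-/- and 180.3 ± 40.3 CPM (n = 5) in wild-type phagocytic cells, a log2 fold change of -1.28 ± 0.26 (95% interval -1.82 to -0.74) and an adjusted p of 0.0785 by edgeR. Under DESeq2 the adjusted p was 0.00455 (log2 fold change -1.27). With no filter on low counts edgeR gave 0.00103, and without Apoe-/- phagocytic pool 1 it gave 0.00309 (-1.56). These settings also called more of all genes, 0.297% and 0.186%. Other alternatives gave weaker results. Over all of them the estimate ran from -1.56 to -1.10 and the adjusted p from 0.00103 to 0.306 (edgeR, DESeq2 or limma). In non-phagocytic cells the estimate was -0.45 ± 0.26, with an unadjusted p of 0.102. Monocyte markers, whose cells also use PU.1, reached highest in wild-type phagocytic libraries (4978 to 12913 CPM in sum), which overlapped with Apoe-/- phagocytic libraries (3460 to 5614 CPM). In the same genotype comparison 18 of 20 had estimates below 0 (50.5% of all genes), with a median of -1.18 and 0 called. Over wild-type phagocytic pools 1 to 5 the sums were 8356, 10275, 4978, 12913 and 6819 CPM, and Spi1 stood at 176, 157, 228, 212 and 129 CPM. Their part in the Spi1 values was not tested.

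Bin1, an adaptor that bends membranes in endocytosis, followed next in that comparison. It stood at 314, 468, 479, 265 and 444 CPM in wild-type non-phagocytic and at 489, 570.1, 542, 301 and 402 CPM in phagocytic pools 1 to 5. The Apoe-/- libraries held 186 to 506 CPM (median 347) without and 157 to 553 CPM (median 209.9) with uptake. Pool 1 of the Apoe-/- phagocytic libraries, at 553 CPM, sat among the wild-type values, while the other 5 (157 to 223 CPM) lay below every wild-type library. The estimate was -0.83 ± 0.29 with all libraries (adjusted p = 0.584 by edgeR) and -1.20 without that pool (adjusted p = 0.0364 by edgeR). Over the alternatives it ran from -1.20 to -0.72, with adjusted p from 0.0364 to 0.858 (edgeR, DESeq2 or limma).

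Counted over all members, 30 of 38 had estimates below 0 in Apoe-/- against wild-type phagocytic cells (50.5% of all genes; median -0.24), and 3 lay at an unadjusted p under 0.05, all lower (Spi1, Bin1 and Trem3, against 6.62% of all genes and 4.19% on that side). That median ran from -0.39 to -0.07 over the alternatives. It was -0.07 and -0.11 without wild-type phagocytic pools 2 and 3, and -0.10 without either of Apoe-/- phagocytic pools 5 and 6. Without wild-type phagocytic pool 4 it was -0.38, and without either of Apoe-/- phagocytic pools 1 and 3 it was -0.39. On the higher side the largest were Tgfa at 0.87 ± 0.44, Hpgds at 0.46 ± 0.23 and Maf at 0.29 ± 0.25. In non-phagocytic cells the genotypes differed little, with 22 of 38 below 0 (50.3% of all genes), a median of -0.03 (0.17 without wild-type non-phagocytic pool 2, -0.19 without pool 4) and 0 members at an unadjusted p under 0.05 (3.8% of all genes). The widest estimates there were Crybb1 at 0.43 ± 0.48, Spi1 at -0.45 ± 0.26, Slc2a5 at -0.39 ± 0.64 and Fcrls at -0.31 ± 0.43. That count rested on single libraries, since it was 7 without wild-type non-phagocytic pool 2, 13 without pool 3, and 31 without the wild-type pools numbered 4. Leaving out Apoe-/- non-phagocytic pools 2 and 5, those with over 40% abundant predicted genes (chosen after seeing the data), gave 12. For the genotype difference in the uptake effect, 29 of 38 lay below 0 (51.5% of all genes; median -0.17, which ran from -0.40 without wild-type non-phagocytic pool 2 to -0.02 without wild-type phagocytic pool 2), and 1 member, Spi1, had an unadjusted p under 0.05. The comparisons share libraries, so their counts are not separate evidence.

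Many members varied together between pools of 1 group. Among wild-type non-phagocytic libraries, pool 4 was the lowest in 32 of 38 members, while it was the lowest in 22.6% of all genes tested. Among wild-type phagocytic libraries, pool 4 was the lowest in 26 of 38 (20.8% of genes). Pool 2 was the highest in 24 of 38 members among non-phagocytic (16.6%) and in 19 of 38 among phagocytic libraries (21.5%). In Apoe-/- cells, phagocytic pool 5 was the lowest in 19 of 38 (15.1%) and non-phagocytic pool 1 the highest in 23 of 38 (14.3%).

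**Figure D3:**
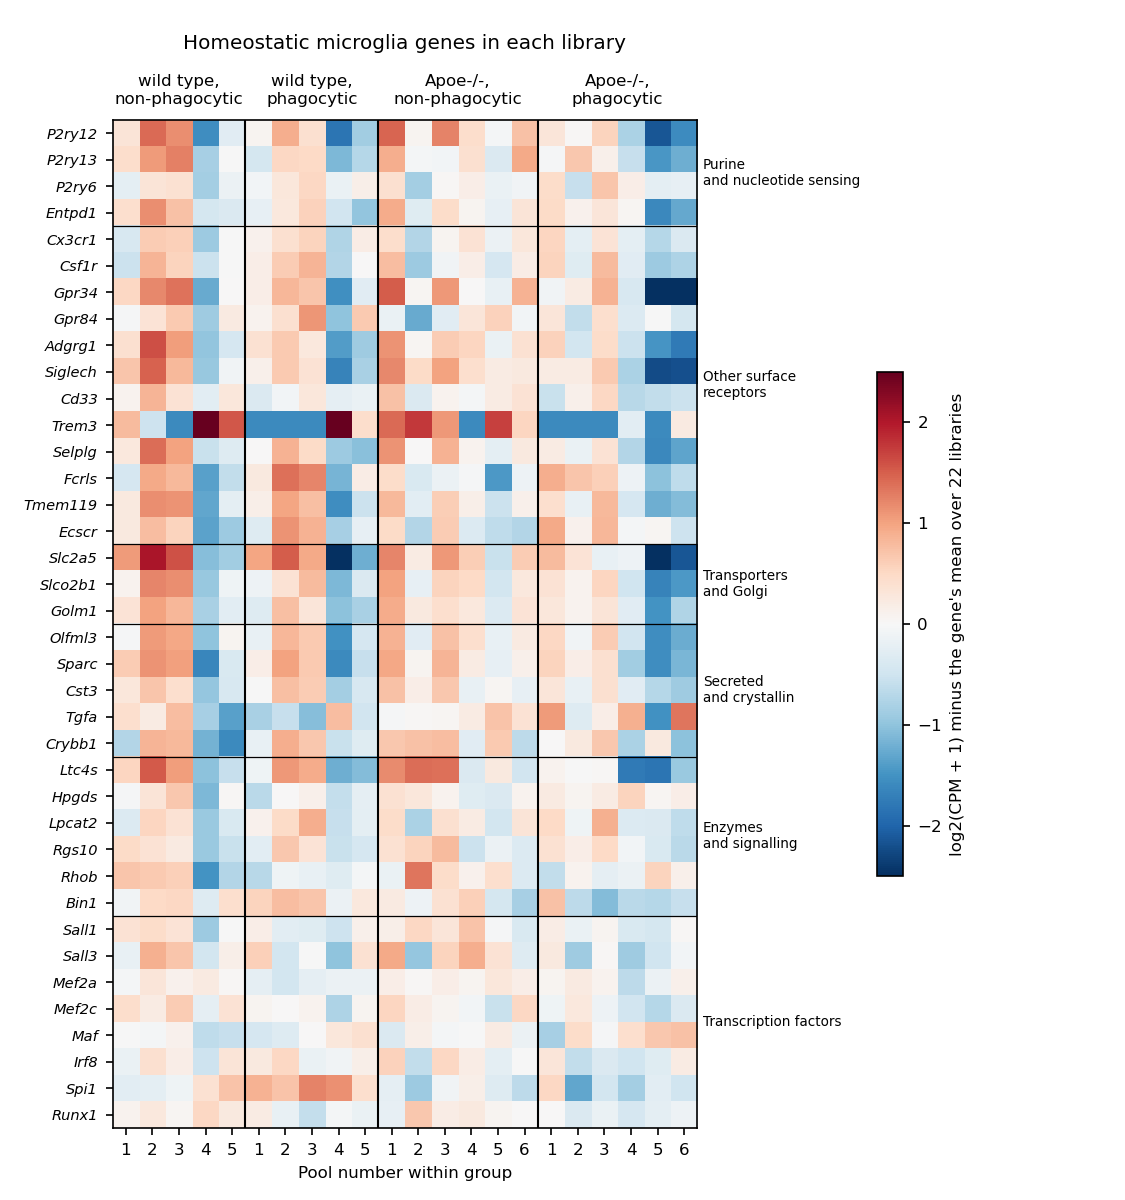
Each square shows log2(CPM + 1) of a gene (rows, by role) in a library (columns, by group and pool number) minus the gene's mean over the 22 libraries, with colours clipped at the ends of the scale. Wild-type pools 4 and Apoe-/- phagocytic pools 5 and 6 are blue for most receptors, transporters and secreted proteins, while most transcription factors are paler.

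The pools that were low in members were not alike in monocyte and dendritic cell markers. Summed over the members, wild-type pools 4 held 9934 CPM (non-phagocytic) and 9998 CPM (phagocytic), against 15842 to 31654 CPM and 15198 to 28282 CPM in the other wild-type pools. The same libraries held the highest summed monocyte markers of their groups, at 8194 and 12913 CPM, and Ly6c2 at 55.8 and 72.7 CPM, although Ly6c was sorted against. Summed dendritic cell markers reached 15255 CPM in the non-phagocytic pool 4, the highest of all libraries, and 4152 CPM in the phagocytic one. Apoe-/- phagocytic pools 5 and 6 held 9838 and 10361 CPM of members, with 4819 and 4532 CPM of monocyte markers, inside the range of their group (3460 to 5614 CPM). Their dendritic cell markers, 1227 and 1231 CPM, were also inside it (525 to 3074 CPM). Summed activated (MGnD) markers were highest of their groups in these pools (36351 and 35188 CPM) and in wild-type non-phagocytic pool 4 (16502 CPM; group 14174 to 16502 CPM). Wild-type phagocytic pool 4 held 38105 CPM of them, below pool 2 (41296 CPM). Marker sums do not count cells, since the lists share genes. Lyz2 and Cybb stand on both the monocyte and the activated (MGnD) list, and Nr4a1 on both the monocyte and the dissociation list. The part of these markers, or of cells that carry them, in the members' values was not tested. Border macrophage markers were higher in phagocytic libraries of each genotype, at 774 to 1386 CPM against 423 to 541 CPM in wild type and at 651 to 1284 CPM against 362 to 552 CPM in Apoe-/- libraries, without overlap. Their part in the sort comparison was likewise not tested.

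**Figure D4:**
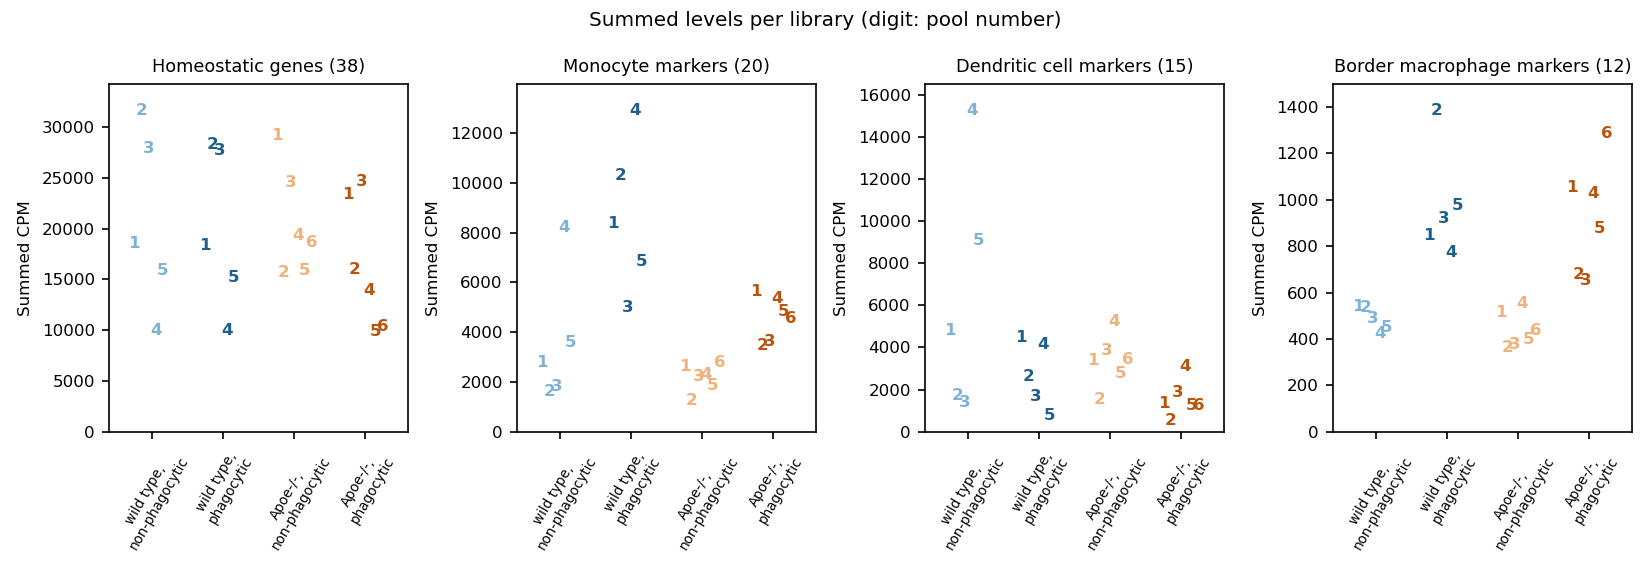
Summed CPM (y axes, each from 0) of the 38 members and of monocyte, dendritic cell and border macrophage markers in each library, by group (x axis), with each library drawn as its pool number. Members are lowest, at 9838 to 10361 CPM, in wild-type pools 4 and Apoe-/- phagocytic pools 5 and 6, and monocyte markers are highest in wild-type phagocytic pool 4 (12913 CPM).

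Members of each role covered a range of spreads within groups, and the difference between roles was not tested. As the SD of log2(CPM + 1) averaged over the 4 groups, it was highest for Slc2a5 (1.45), Trem3 (1.45), Gpr34 (1.07) and P2ry12 (0.996) and lowest for Mef2a (0.171) and Runx1 (0.234). Medians by role were 0.374 for the 8 transcription factors, 0.549 for enzymes and signalling, 0.699 for nucleotide sensing, 0.767 for secreted proteins, 0.780 for transporters and 0.798 for the other receptors. Single genes crossed this order, since Sall3 (0.612) varied more than the receptors Cd33 (0.377), P2ry6 (0.420), Cx3cr1 (0.520) and Gpr84 (0.607). For the 32 members with a mean of 50 CPM or more the median was 0.610, against 0.359 for the 3329 tested genes of such levels, and 30 of the 32 lay above the latter.

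**Figure D5:**
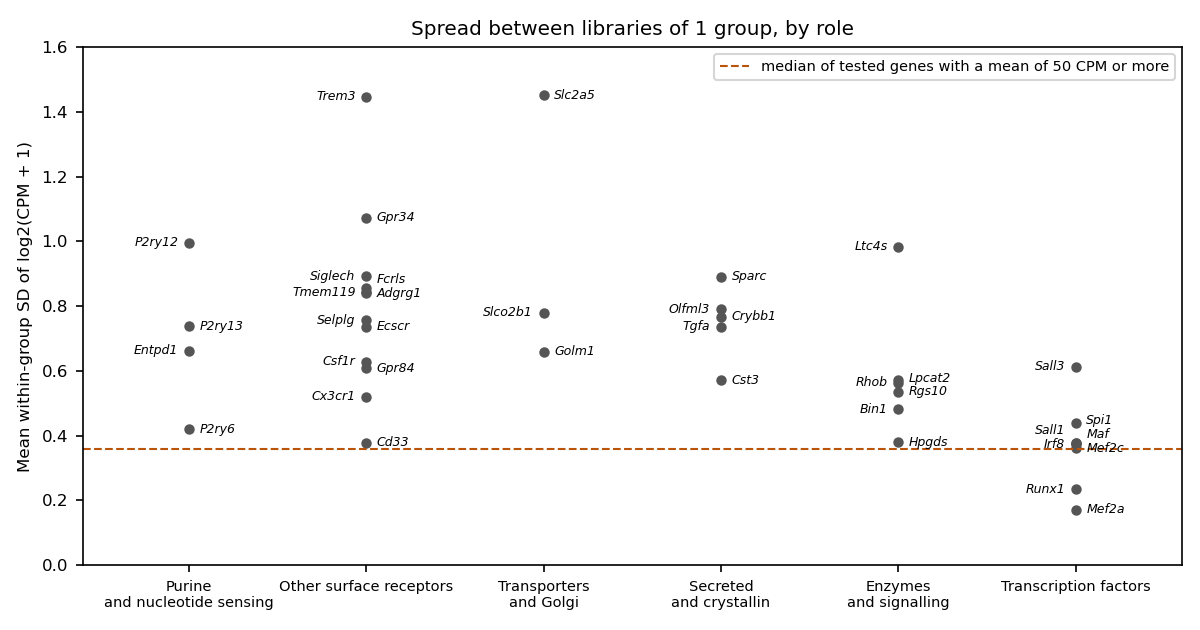
SD of log2(CPM + 1) within groups, averaged over the 4 groups (y axis), for each member by role (x axis), with the median of the 3329 tested genes of at least 50 CPM as a dashed line. Of the 32 members of that level, 30 lie above the line.

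Because Salmon assigns reads to transcripts, the form of each member could be read as well. In 19 of 38 members 90% or more of the reads fell on 1 transcript, and in 6 no transcript took 50%. For Spi1, the main coding transcript Spi1-201 took 69.6 ± 4.57% of reads in wild-type phagocytic and 59.9 ± 9.80% in wild-type non-phagocytic cells, and 61.6 ± 6.48% and 55.1 ± 10.9% in the Apoe-/- groups. Olfml3 reads fell mostly on Olfml3-202, annotated as a retained intron, with 70.6% to 74.4% as group means. Lpcat2 reads were split between the coding Lpcat2-201 and the nonsense-mediated decay form Lpcat2-204, with group means of 48.1% to 51.6% for the latter. Such shares are Salmon's estimates and were not tested. Exons of 14 members overlap a gene on the other strand, and in 5 the partner had reads, namely Csf1r with Hmgxb3, Golm1 with Naa35, P2ry12 with Med12l, Mef2a with Lysmd4 and Ecscr with 1700066B19Rik. The strand setting is not given in the sources used here, so reads of such pairs could not be told apart by strand where they overlap.

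A wider list of 58 homeostatic, TGF-beta and CSF1R pathway genes outside the members gave a like picture. Of its 57 tested genes, 0 passed in the wild-type sort comparison (0.209% of all genes). In that comparison 38 lay below 0 (50.8% of all genes), with a median of -0.11. The smallest p there belonged to Egr1, an immediate early factor, at -0.81 ± 0.21 (adjusted p = 0.123), and to Csf1, a ligand of CSF1R, at 1.16 ± 0.35 (adjusted p = 0.247, both by edgeR). Among Apoe-/- cells 44 of 57 lay below 0 (52.3% of all genes), with a median of -0.23. Only Egr1 passed (0.467% of all genes), falling from 922 ± 134.5 to 425 ± 56.2 CPM (log2 fold change -1.12 ± 0.19, adjusted p = 0.00624 by edgeR). Egr1 also stands on the list of genes that respond to dissociation, of which 3 of 20 passed on the lower side in that comparison (0.467% of all genes on either side). In the same libraries, 6 and 10 of 25 activated (MGnD) genes passed on the higher side in wild type and Apoe-/- cells, with medians of 0.99 and 0.85. Of all genes, 0.209% and 0.467% passed on either side. The lists were chosen with earlier results of these data known, so such counts describe the lists and are not a test.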

How the data were processed

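Per the file headers, the authors deposited Salmon output for 22 libraries, with the estimated count and the TPM of 116248 transcripts and their lengths, and a gene table in FPKM. The submitters' processing notes list Salmon 1.4.0, R 4.0.3, DESeq2 1.30.1 and mm10, without saying what each did. Trimming, annotation and strandedness are not given in these sources. Salmon divides reads among similar transcripts, so counts of overlapping or near-identical genes are uncertain.

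GENCODE M21 named 116072 transcripts, and the other 176, with 0.118% to 0.262% of a library's reads, stayed out. Estimated counts were summed over 35596 genes and rounded. The test was edgeR's quasi-likelihood test (edgeR 4.0.16, R 4.3.3) on all 4 groups together, with TMM scaling, the filterByExpr filter and Benjamini-Hochberg adjustment over 12415 genes at a threshold of 0.05. The common coefficient of variation between libraries was 0.426. The script was tested on simulated data. Levels are CPM after TMM scaling, differences are log2 fold changes ± SE with 95% intervals, and means carry SDs. Counting intervals are left out because PCR copies were not told apart from separate molecules.

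The members, gene lists and roles were chosen with earlier results of these data known. Values in every library are printed for the 4 defining markers, Sall1, Csf1r, and, in each comparison, the 3 members with the smallest p and the 3 with the largest fold change each way at a mean of 5 CPM or more, with the Apoe-/- groups (6 libraries each) given as lowest, median and highest. Other members are given by estimates. Bin1 and Spi1 were also followed through the alternatives. Alternatives were RLE size factors, DESeq2 1.42.0, no filter, a stricter filter (5 CPM in 5 libraries), a replicate block, only the groups compared, length-scaled counts, no abundant predicted genes, limma 3.58.1 on log2(FPKM + 1) of the authors' deposited table (16530 of 16734 genes matched), each library left out, and 2 left-out sets added after seeing the data.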

Additional observations from a re-analysis of the deposited data

Results flagged for a closer look

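Of 152 sets of a member and a group, 6 held a library far from the rest of its group. Members vary together, and chance alone, at about 1 in 20, gives 7.6 such sets, more than these 6. Wild-type phagocytic pool 4 was involved in 3 of these: Mef2c was lowest there at 88.98 CPM (next library 152.2 CPM), Tgfa highest at 29.94 CPM (next 11.99 CPM) and Trem3 highest at 23.53 CPM (next 3.109 CPM). That library also held the highest summed monocyte markers of all libraries, at 12913 CPM, and their part in these values was not tested. In Apoe-/- phagocytic cells Bin1 stood at 553.4 CPM in pool 1 (next 223.2 CPM) and Hpgds at 162.9 CPM in pool 4 (next 127.7 CPM). In Apoe-/- non-phagocytic cells Rhob stood at 204.2 CPM in pool 2 (next 109.5 CPM), a library with 49.5% of its reads on abundant predicted genes.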

How the results depend on the processing

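No member was called in the wild-type sort comparison, the non-phagocytic genotype comparison or the genotype difference in the uptake effect under any alternative run. In the Apoe-/- sort comparison, a replicate block on the pool number called 7 members, all lower (P2ry12 at -1.22, Siglech -1.24, Ltc4s -1.37, Adgrg1 -0.92, Selplg -0.89, Sparc -0.74 and Golm1 -0.61), and 255 genes in all against 58 without it (135 against 26 in wild type). Equal numbers were not taken as pairs, since the titles do not state shared animals and the correlations of same-numbered libraries were not all over 0.1. These correlations were 0.0402 to 0.423 in wild type and 0.0626 to 0.214 in Apoe-/- cells. However, 2 of 5 wild-type and 5 of 6 Apoe-/- numbers correlated best with their own, so whether equal numbers share animals is not known. For genotype in phagocytic cells, 1 member (Spi1) was called with no filter and 1 with DESeq2, and leaving out single libraries gave 0 to 2 (Spi1 and Bin1, without Apoe-/- phagocytic pool 1). Over all genes these settings called 96 of 32368, 19 of 12414 and 23 of 12337, against 4 of 12415. The number of members below 0 for genotype in non-phagocytic cells, 22, was 12 without the libraries over 40% abundant predicted genes and 7 to 31 when single libraries were left out, and the cause was not tested. Leaving out 1 library moved the members' median by over 1.5 times for 4 of the libraries in the wild-type sort comparison, 7 and 10 in the genotype comparisons of phagocytic and non-phagocytic cells and 13 in the genotype difference of the uptake effect. Among 64 member estimates larger than their SE, 0 of 2090 alternative values changed sign. Among the 126 smaller ones, 343 of 4063 did, so their direction is not settled. The alternatives reuse the same libraries, so an unchanged sign does not by itself settle the direction of the 64. With libraries of 1131239 to 3643674 reads, members under 5 CPM such as Trem3 rest on few reads, and the spread between pools leaves intervals of about 1 log2 unit or more on each side for P2ry12 and Gpr34.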
